A study of Caenorhabditis elegans with 2 samples.

Results

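The small-subunit ribosomal protein genes of Caenorhabditis elegans are the genes named rps, which encode the proteins of the 40S subunit of the cytosolic ribosome. They were taken as the protein-coding genes of the Ensembl annotation (WBcel235) whose names are rps- followed by a number, which gave 31 of 19973 protein-coding genes. The study mapped where CEH-18, a transcription factor of the POU homeodomain family, sits on the genome, using ChIP-seq of whole late embryos of hermaphrodites collected 3 h after synchronization by egg bleaching. The strain was OP533, with the genotype unc-119(tm4063) III; wgIs533, in which a stable transgene makes CEH-18 with GFP and FLAG at its C-terminus, from a promoter that the labels do not name. The sample description states an anti-GFP antibody, while the antibody field reads ceh-18. The 2 biological replicates formed 1 group with no other condition, so no difference between conditions was measured. With whole embryos, the cells in which a site was bound cannot be told apart.

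Ribosomal proteins of the small subunit fold the 18S ribosomal RNA into a head, a body and a platform, which together scan messenger RNA and hold the decoding site. Their genes are among the most highly expressed in growing cells and must be expressed in step with one another and with the large-subunit (rpl) genes. In this nematode many messenger RNAs are trans-spliced, so that a short spliced leader replaces the first stretch of the transcript at an AG acceptor, and the annotated 5′ end of such a gene is the splice acceptor and not the start of transcription, which lies upstream. Some nematode genes also lie in operons, closely spaced on the same strand behind one promoter. POU proteins bind DNA through a POU-specific domain and a homeodomain, classically at an octamer, and CEH-18 is known for its role in the sheath cells of the gonad and in the control of oocyte maturation.

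A gene was called bound when the summit of a reproducible peak lay from 1000 bp upstream to 200 bp downstream of its annotated 5′ end. The reproducible peaks were the 2575 that the authors kept with a threshold on the irreproducible discovery rate (IDR). By that rule 22 of the 31 rps genes were bound, or 71.0% (exact 95% binomial interval 52.0% to 85.8%, which covers counting error only), against 7.20% of all protein-coding genes. Each of the 22 had exactly 1 such summit, the 22 summits were distinct, and all of them lay upstream of the gene. In the authors' longer list of 28466 peaks from both replicates pooled, which includes background, 29 of the 31 members had a summit in the window (93.5%), against 35.1% of all protein-coding genes. The bound members were rps-0, rps-1, rps-3, rps-4, rps-10 to rps-15, rps-17 to rps-24, rps-26 and rps-28 to rps-30. The members not bound were rps-2, rps-5 to rps-9, rps-16, rps-25 and rps-27.

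The sequence under the summits is shown for the 6 bound members on chromosomes III, IV and V with the highest signal, as 151 bases centred on the summit and read on the gene's strand, from the RefSeq WBcel235 genome, which is the ce11 build. Capitals mark GAGAGA, the words of 7 bases that recurred among the members, and GGTCTCG, each on either strand and described further on. The windows are, in this order, IV:1659163-1659313, III:4475592-4475742, IV:385499-385649, III:5679057-5679207, III:1950351-1950501 and V:7776242-7776392, all on the forward strand.
rps-28: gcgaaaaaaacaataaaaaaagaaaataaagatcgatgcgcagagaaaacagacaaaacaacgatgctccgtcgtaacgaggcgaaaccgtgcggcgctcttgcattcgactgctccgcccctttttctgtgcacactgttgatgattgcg
rps-1: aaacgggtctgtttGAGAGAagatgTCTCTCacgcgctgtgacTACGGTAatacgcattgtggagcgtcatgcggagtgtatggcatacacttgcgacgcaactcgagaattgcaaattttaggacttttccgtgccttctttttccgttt
rps-24: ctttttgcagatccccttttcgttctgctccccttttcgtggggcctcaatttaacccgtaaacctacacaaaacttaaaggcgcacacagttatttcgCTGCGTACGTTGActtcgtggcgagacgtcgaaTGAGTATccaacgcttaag
rps-12: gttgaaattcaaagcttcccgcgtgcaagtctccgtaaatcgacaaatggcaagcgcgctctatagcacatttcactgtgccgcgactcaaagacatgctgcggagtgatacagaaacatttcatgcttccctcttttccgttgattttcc
rps-22: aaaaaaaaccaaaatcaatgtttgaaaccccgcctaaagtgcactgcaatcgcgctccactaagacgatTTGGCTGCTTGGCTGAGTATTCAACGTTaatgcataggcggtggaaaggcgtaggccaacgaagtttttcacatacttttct
rps-30: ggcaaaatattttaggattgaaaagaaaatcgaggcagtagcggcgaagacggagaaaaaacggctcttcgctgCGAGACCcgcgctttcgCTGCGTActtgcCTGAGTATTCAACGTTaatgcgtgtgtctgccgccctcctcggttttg
The windows of rps-28 and rps-12 hold none of the marked words, that of rps-1 holds GAGAGA on both strands, and those of rps-22 and rps-30 share a longer run.

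The strength of a peak was read from the authors' signal value, a peak height on a scale the sources used here do not state, and it was compared only within a list. The 22 bound members had signals from 129 to 585 with a median of 202, in a list whose lowest signal was 114 and whose median was 172. Of the 22, 15 (68.2%) were among the 1287 thresholded peaks with the highest signal and 6 (27.3%) were among the highest 257. By the deposited −log10 of the q-value, 19 of the 22 stood at the highest value in use, 3.58, and the lowest member was rps-11 at 3.12. The share of all thresholded peaks at 3.58 was not counted. Weaker members such as rps-14 (signal 139, rank 1875) also stood there, so the count does not set the members apart.

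The strongest peaks were at rps-19 and rps-28, whose proteins belong to the head of the subunit in yeast and mammals. The gene rps-19, whose human counterpart is mutated in Diamond-Blackfan anaemia, had a signal of 585, and its summit lay 280 bp upstream. This was rank 33 of the thresholded list, in which all bound members were ranked. Replicate 1 gave 281 (rank 42) and replicate 2 gave 300 (rank 34). At rps-28 the signal was 539 (rank 48), with 287 in replicate 1 (rank 38) and 249 in replicate 2 (rank 70), at 453 bp upstream over IV:1659106-1659399. Both libraries ranked these 2 peaks among their own highest.

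Next came rps-1 and rps-24, whose proteins lie in the body and platform of the subunit. At rps-1 the signal was 506 (rank 60) over III:4475525-4475819, with 219 in replicate 1 (rank 125) and 284 in replicate 2 (rank 40), and the summit was 251 bp upstream in the pooled list and in both replicates. At rps-24 it was 489 (rank 75) over IV:385436-385754, with 250 in replicate 1 (rank 77) and 238 in replicate 2 (rank 89), at 313 bp upstream. The replicates gave rps-24 nearly the same height, while rps-1 was higher in replicate 2.

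The head protein genes rps-12, rps-20 and rps-10 followed. The signal at rps-12 was 415 (rank 143), 166 bp upstream, with 169 in replicate 1 (rank 290) and 248 in replicate 2 (rank 72). At rps-20 it was 402 (rank 164), 255 bp upstream, with 134 in replicate 1 (rank 516) and 261 in replicate 2 (rank 54). This was the bound member whose replicates differed most, by −0.96 on the log2 scale (replicate 1 over replicate 2). At rps-10 the signal was 306 (rank 350), 363 bp upstream, and the replicates were close, with 150 (rank 392) in replicate 1 and 156 (rank 338) in replicate 2. The eighth, rps-22, had a signal of 278 (rank 454) with 143 in replicate 1 (rank 436) and 131 in replicate 2 (rank 533), and its summit was the nearest of all to a member's 5′ end, at 109 bp.

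**Figure D1:**
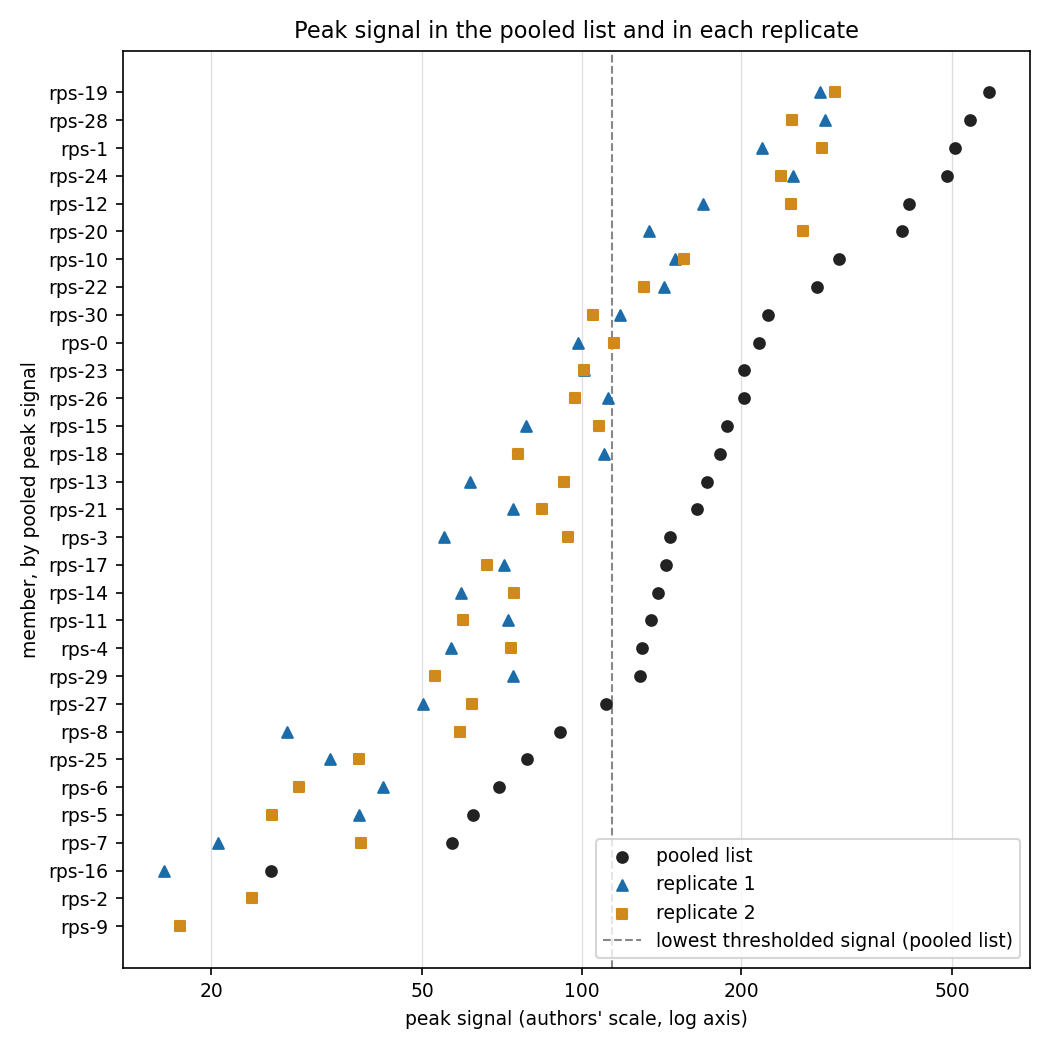
Signal of the strongest peak in the promoter window of each rps gene, on the authors' scale and a log axis, in the pooled list and in the list of each replicate, with the lowest thresholded signal (114) as a dashed line. The 22 bound members run from 585 at rps-19 to 129 at rps-29, and rps-27 lies just left of the line at 111.

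The other bound members formed a continuous run down to the threshold. The genes rps-30, rps-0, rps-23 (whose protein lines the decoding centre) and rps-26 had signals of 202 to 225, and rps-15, rps-18, rps-13 and rps-21 had 165 to 188. The genes rps-3, rps-17, rps-14, rps-11, rps-4 and rps-29 had 129 to 147. At rps-11, of the body, the signal was 135 (rank 1986), 373 bp upstream, with 72.7 in replicate 1 (rank 1771) and 59.8 in replicate 2 (rank 2506). At rps-4 it was 130 (rank 2110), 249 bp upstream, with 56.7 in replicate 1 (rank 2689) and 73.6 in replicate 2 (rank 1782). At rps-29, which encodes a small head protein that binds zinc, it was 129 (rank 2140), 514 bp upstream, with 74.2 in replicate 1 (rank 1708) and 52.9 in replicate 2 (rank 3017). These 3 members were the closest to the threshold on the inside, and none of them stood at the highest q-value.

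Of the 9 members not bound, 7 had a weaker summit in the pooled list. The closest to the threshold was rps-27, which encodes a zinc-binding protein of the platform side. It had a signal of 111, 603 bp upstream, and 50.1 and 62.0 in replicates 1 and 2. Its rank was 2664 in the pooled list, in which the members not bound were ranked. Next was rps-8, with 91.2 (rank 3568), 218 bp upstream, and replicate signals of 27.8 and 59.0. The signals were 78.9 at rps-25, 69.9 at rps-6, whose protein is the classic substrate of the S6 kinase, 62.3 at rps-5 and 57.0 at rps-7. Their summits lay 278, 297, 360 and 257 bp upstream, so that 5 of the 7 weaker peaks were 200 to 400 bp upstream, where most bound members had theirs. The share of other genes' weaker peaks in that band was not counted, so the 5 of 7 has no background beside it.

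The remaining 3 members had little or no listed signal. At rps-16, whose protein reaches the peptidyl transfer RNA with its tail, the only pooled summit had a signal of 26 (rank 24659) and lay 958 bp upstream, within an exon of fib-1. It was listed in replicate 1 (16.3) and not in replicate 2. At rps-2, whose protein lies near the messenger RNA entry, and at rps-9, of the body, no pooled summit was listed. In replicate 2 alone rps-2 had a summit of signal 23.9, 61 bp upstream, and rps-9 had a summit of signal 17.5, 894 bp upstream. Read counts were not used here, so for rps-2 and rps-9 it can be said only that the pooled list held no peak.

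The windows of the 2 strongest members under the threshold are shown for comparison, from the same genome and on the gene's strand, which is the reverse strand at V:104605-104755 and IV:7314003-7314153, with capitals as before.
rps-27: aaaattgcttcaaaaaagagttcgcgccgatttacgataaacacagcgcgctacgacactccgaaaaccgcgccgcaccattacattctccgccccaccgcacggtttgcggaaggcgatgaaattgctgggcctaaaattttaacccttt
rps-8: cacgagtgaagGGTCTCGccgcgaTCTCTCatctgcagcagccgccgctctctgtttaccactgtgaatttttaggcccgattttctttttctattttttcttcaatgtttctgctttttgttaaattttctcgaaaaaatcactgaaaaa
The window of rps-27 holds none of the marked words, and that of rps-8 holds GGTCTCG and, on the other strand, GAGAGA, both to the upstream side of the summit.

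The replicates gave the bound members similar heights and positions. Signals of the 22 ran from 54.9 to 287 with a median of 106 in replicate 1, and from 52.9 to 300 with a median of 103 in replicate 2. Across the 22 members Spearman's rho between the replicates was 0.837, as a description, since the members were required to be reproducible. The SD of the log2 ratio of replicate 1 over replicate 2 was 0.39 among the members and 0.43 over the 2498 thresholded peaks with a summit within 100 bp in both replicates. The ratio ran from −0.96 at rps-20 to 0.53 at rps-18. The summits of the replicates were a median of 17.5 bp apart, at most 51 bp (rps-11), and within 30 bp at 19 of 22 members. Nothing beyond the word biological says that the replicates came from separate cultures, so this spread may be technical.

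Summits of bound members sat in a narrow band well upstream of the annotated 5′ end. The median distance was 289 bp upstream, with quartiles of 252 and 362 bp and a range of 109 to 542 bp. Of the 22, 15 (68.2%) lay 200 to 400 bp upstream, against 430 of 1416 (30.4%) among all other bound genes, whose median was 261 bp with quartiles of 140 and 468 bp. The limits of 200 and 400 bp have no stated basis outside these data and bracket the members' own quartiles, so these shares are a description. No bound member had its summit downstream of the 5′ end, where 4.52% of the other bound genes had theirs, and none had a thresholded summit inside the gene. The bound members nearest to their summit were rps-22 at 109 bp, rps-12 at 166 bp and rps-13 at 190 bp. The farthest were rps-18 at 542 bp, rps-29 at 514 bp, rps-28 at 453 bp and rps-26 at 405 bp. Signal did not follow distance across the 22 (Spearman's rho −0.117, as a description).

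**Figure D2:**
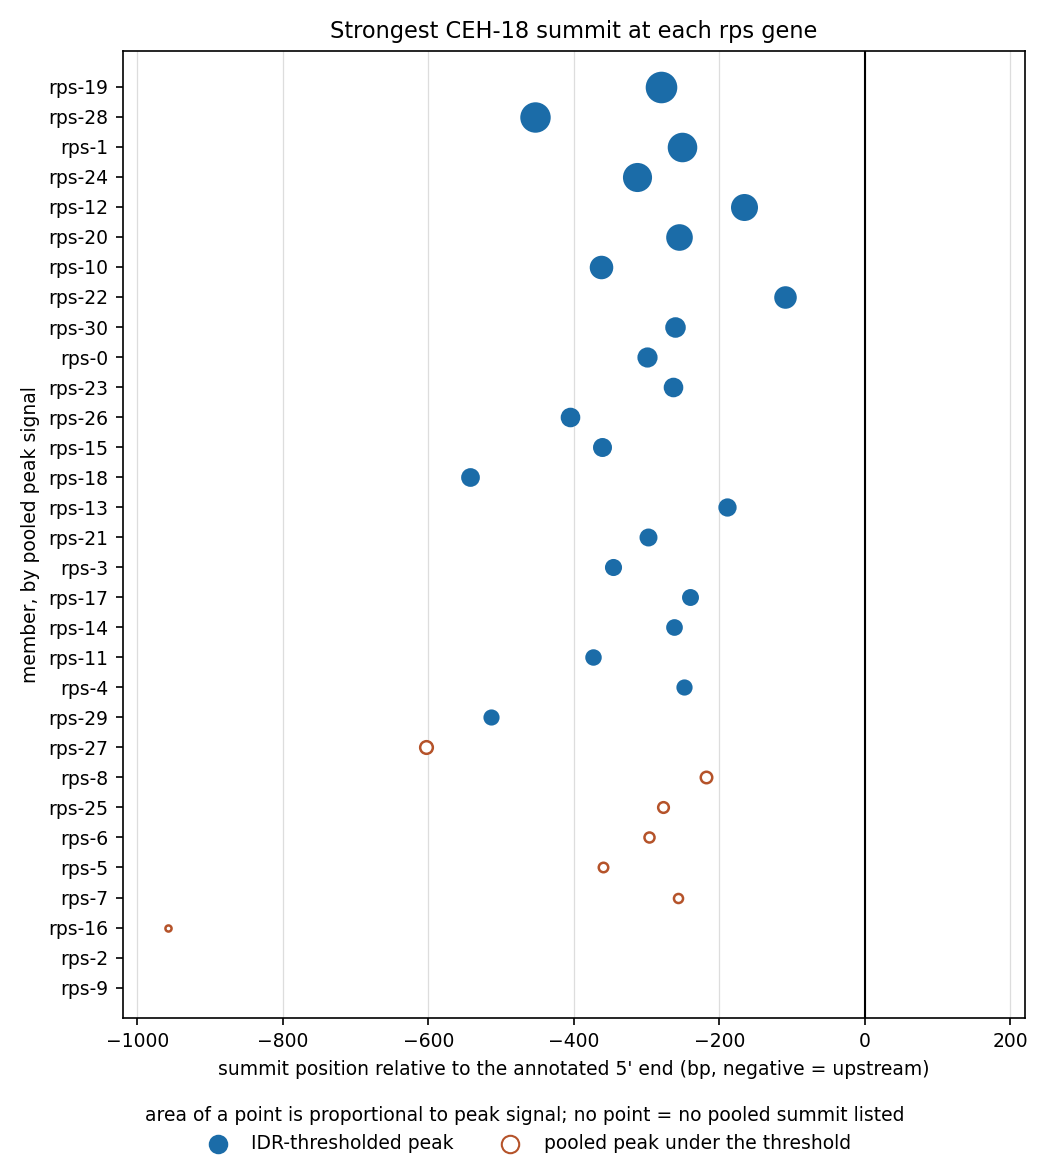
Position of the strongest summit relative to the annotated 5′ end of each rps gene, in bp with upstream to the left, with filled points for thresholded peaks and open points for pooled peaks under the threshold, and area in proportion to signal. Of the 22 filled points 15 lie between 200 and 400 bp upstream, rps-16 is the open point at 958 bp, and rps-2 and rps-9 have no point.

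Summits of the large-subunit genes lay at similar median distances over a wider range. The 28 bound rpl genes had a median of 284 bp upstream with quartiles of 251 and 351 bp and a range of 38 to 737 bp, and 21 of them (75%) lay 200 to 400 bp upstream. The bins of 100 bp that held most bound genes were 200 to 300 bp upstream for the rps genes (45.5%) and the rpl genes (46.4%), and 100 to 200 bp upstream for the other bound genes (21%).

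**Figure D3:**
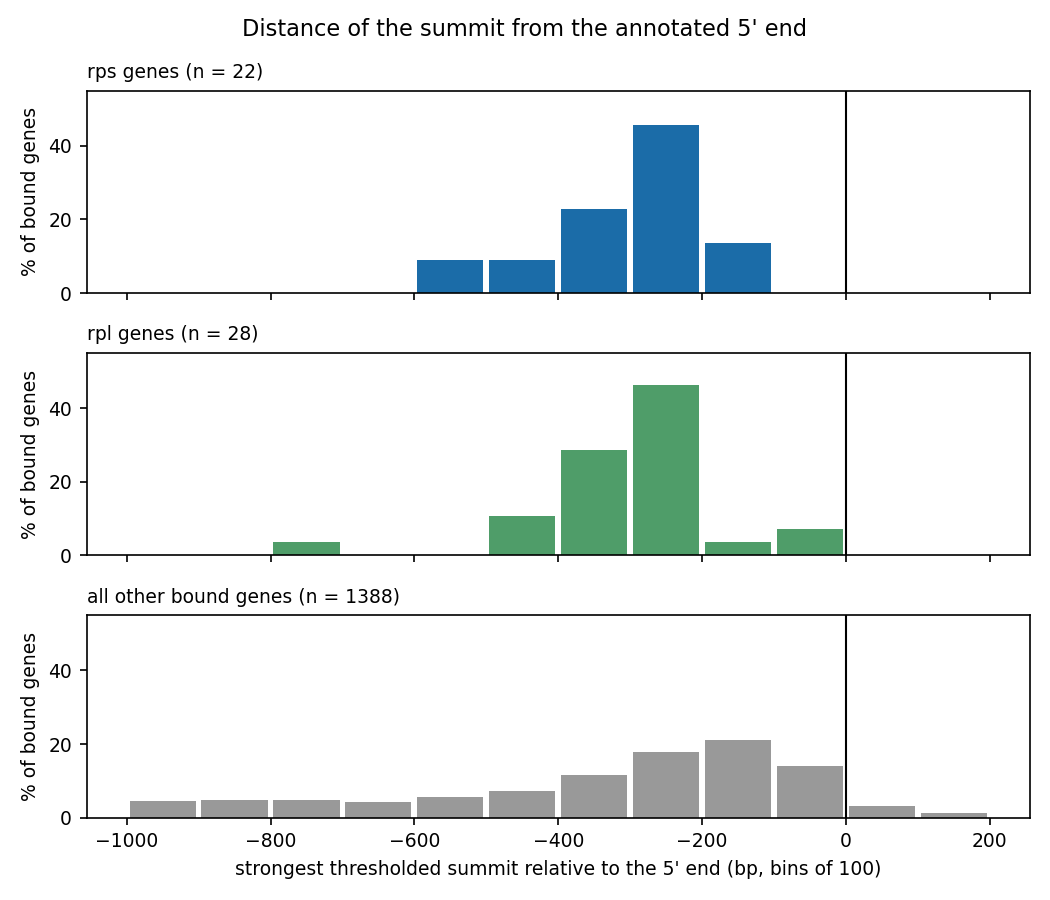
Share of bound genes by the position of the strongest thresholded summit relative to the 5′ end, in bins of 100 bp with upstream to the left, for 22 rps genes, 28 rpl genes and 1388 other genes. The rps and rpl genes peak in the bin 200 to 300 bp upstream (45.5% and 46.4%), where the other genes hold 17.8%.

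The annotated 5′ ends of most members followed the bases of a splice acceptor. The 2 bases just before the 5′ end were AG at 28 of 31 members (90.3%), against 27.5% of the other protein-coding genes, and the 6 bases TTTCAG stood there at 15 members (48.4%), against 12.2%. The exceptions were rps-22, rps-24 and rps-27, which each had AG before the start of another annotated transcript. The stretch between the 5′ end and the start codon was short, with a median of 11 bp and a range of 1 to 141 bp, and was at most 32 bp at 28 members. The 60 bases before the 5′ end of rps-1, III:4475858-4475917 on the forward strand, are shown with the last 6 in capitals, as an example of such an end.
rps-1: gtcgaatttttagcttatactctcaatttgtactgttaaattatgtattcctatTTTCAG
The annotation used here marks neither spliced leaders nor operons, so an AG is a description of the sequence, and the distance from each summit to the true start of transcription was not measured.

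Most members stood back to back with another gene. A divergent neighbour had its 5′ end within 1000 bp of 19 members (61.3%), of which 16 (84.2%) were bound, while 515 of 3419 other protein-coding genes so placed (15.1%) were bound. A neighbour on the same strand ended within 500 bp upstream of 4 members, of which 1, rps-17, was bound (480 bp behind T08B2.11), against 3.71% of 3534 other genes so placed. The other 3 were rps-16, 109 bp behind fib-1, rps-2, 356 bp behind C49H3.12, and rps-7, 478 bp behind Y106G6G.1. Of the 8 members with neither kind of neighbour, 5 were bound, against 6.05% of other genes. Among these 8, rps-8 (510 bp, not bound), rps-4 (532 bp, bound) and rps-21 (557 bp, bound) lay behind a same-strand gene just past the 500 bp limit. The counts therefore depend on that limit. These 3 classes hold 19, 4 and 8 members, and no test was made between them.

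At rps-16 the signal lay upstream of its neighbour. The gene fib-1 encodes fibrillarin, the methyltransferase of the small nucleolar RNA (snoRNA) particles that modify ribosomal RNA. Its strongest summit had a signal of 494 (rank 69 of the pooled list), 103 bp upstream of its own 5′ end. The same summit was the nearest thresholded one to rps-16 and lay 1785 bp upstream of it, outside the window. Whether the pair is transcribed together was not tested.

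Many summits fell in the windows of more than 1 gene. At 17 of the 22 bound members the summit also lay in the window of another protein-coding gene, and at 10 it was nearer to the neighbour's 5′ end than to the member's. The same shares were not counted among the other bound genes. Sharing occurred there too, since 1416 such genes had 1087 distinct strongest summits. At rps-29 the summit lay 53 bp from the 5′ end of snt-2, at rps-26 it lay 52 bp from tmem-107, and at rps-0 it lay 73 bp from rbg-3. When a summit in the promoter window was counted only for the gene with the nearest 5′ end, an alternative added after seeing the data, 12 of the 22 members kept theirs (38.7% of 31), against 5.44% of all genes. With nearest genes taken at any distance and no promoter window, 13 members had a summit (41.9%), against 10.4% of all genes. The member gained was rps-25, whose summit lay 5612 bp upstream. In 3 cases the neighbour was a large-subunit gene, so that a single summit stood between an rps and an rpl gene. These pairs were rps-10 and rpl-24.1, rps-14 and rpl-36, and rps-30 and rpl-39. The summit of rps-30 was nearly central, 261 bp from rps-30 and 238 bp from rpl-39. The 5 members whose summit lay in no other window were rps-4, rps-11, rps-17, rps-21 and rps-24.

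Of the 22 summits, 21 lay in intergenic sequence, and that of rps-18 lay in an exon of sec-61.A, whose human counterpart forms the translocation channel of the endoplasmic reticulum. A tRNA, snoRNA or snRNA gene lay within 200 bp of 1 summit, that of rps-26. Neither share was counted among the other thresholded summits. A snoRNA gene lay inside 5 members, rps-4, rps-12, rps-13, rps-23 and rps-29, and none of these had a thresholded summit within the gene. All 5 were bound, but so were 71.0% of the 31 members, so the count does not set them apart. The share bound among other genes that hold a snoRNA gene was not counted.

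Genes for proteins of the head and of the rest of the subunit, as placed in yeast and mammalian structures, had overlapping signals. Of the 13 genes for head proteins 10 were bound (76.9%), with a median signal of 247 and a median distance of 354 bp. Of the 18 genes for body and platform proteins 12 were bound (66.7%), with a median signal of 202 and a median distance of 262 bp. Signals ran from 129 to 585 at head genes and from 130 to 506 at the others, and no test was made between them.

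The word GAGAGA, common under CEH-18 summits at large, was infrequent at the members. Within 75 bp of the summit it occurred on either strand at 3 of 22 members (13.6%, exact 95% binomial interval 2.91% to 34.9%), which were rps-1, rps-4 and rps-11. It occurred at 1160 of the 2553 other thresholded summits (45.4%) and at 5 of 25 summits of rpl genes that no rps gene shares (20%). The other summits were taken wherever they lay, not only in promoter windows, here and for the words below. In the 500 bp upstream of the 5′ end it occurred at 12 of 31 members (38.7%), 6 of them not bound, against 30% of other genes. The interval at the members' summits lay below the share at other summits, and in the longer upstream windows the members' share was not lower. The GC content of the 151 bases was alike, with a median of 45.7% at the members and 47.7% at the other summits.

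The octamer and the homeodomain word were each at a single member, while the shorter POU word was at several. The classical octamer, searched on both strands, occurred within 75 bp of the summit at 1 of 22 members, rps-20 (4.55%), and at 0.823% of other thresholded summits. The shorter POU word ATGCA occurred at 7 members (31.8%, exact interval 13.9% to 54.9%), against 20.7%, and the homeodomain word TAATTA at 1, rps-0, against 1.49%. The GC box GGGCGG occurred at 3 members, rps-19, rps-28 and rps-30 (13.6%), against 10.4%. The E-box CANNTG occurred at 12 (54.5%), against 51.7%, and TATAAA at 2 (9.09%), against 5.56%. For each of these 5 short words the interval at the members included the share at other summits.

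Other short words recurred among the members. Each of the 8191 words of 7 bases found, counted with its reverse complement, was compared between the 22 member windows and the 2528 windows of thresholded summits of neither rps nor rpl genes. The 11 kept were in at least 6 members and at 10 or more times the share of the other windows. They were picked from these same windows, so the counts describe them and carry no test. The word CAGCCAA was in 8 members (36.4%), against 1.90% of the other windows, and CTGCGTA was also in 8, against 2.57%. ACGTTGA was in 7 (31.8%), against 1.70%, and CTGAGTA in 6 (27.3%), against 0.791%. TACCGTA was in 6 members, rps-1, rps-10, rps-13, rps-17, rps-20 and rps-23, and in 9 of 25 rpl windows (36%), against 1.54%. At least 1 of the 11 words was in 17 members, and none was in rps-4, rps-12, rps-26, rps-28 and rps-29, which include members with signals of 415 and 539. In the 500 bp upstream of the 5′ end of the 9 members not bound, 7 of the 11 words were absent and 4 were present. The absent words are upstream of only 2.19% (CTGCGTA) to 10.3% (ATTCAAC) of other genes. Their absence at 9 genes therefore does not set these members apart. The word AATTAAA, which is upstream of 42.1% of other genes, was at 5 of the 9. AACGTTG was at 2 of the 9 (4.54% of other genes). ACGTTGA (4.94%) and the partly overlapping CGTTGAA (6.77%) were at 1 each.

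Several of these words overlap in one longer run. The longest exact run in the windows of at least 5 members was 14 bases, called run A here, and it was at rps-0, rps-3, rps-20, rps-22 and rps-30, whose signals ran from 147 to 402. Run A was at 1 of 25 rpl windows and at 3 of the 2528 other windows (0.119%). In the whole genome it matched 20 places, 9 of them within 75 bp of a thresholded summit and 12 within 75 bp of a pooled one. At all 5 members it read on the gene's strand, with its middle 12 to 54 bp to the downstream side of the summit and 97 to 317 bp upstream of the 5′ end. The 4 copies on chromosomes III and V are shown on the gene's strand with the run in capitals and 10 bases to each side, with run A at III:4754321-4754334 (reverse strand), III:6206480-6206493, III:1950432-1950445 and V:7776345-7776358 (forward strand).
rps-0: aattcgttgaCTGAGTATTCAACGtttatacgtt
rps-3: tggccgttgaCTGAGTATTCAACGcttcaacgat
rps-22: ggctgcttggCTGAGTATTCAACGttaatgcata
rps-30: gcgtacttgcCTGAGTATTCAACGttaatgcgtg
Run A was picked from these same windows, so its counts describe them and carry no test. The bases beside the run were not used to find it, and their likeness was not tested.

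Among the members without run A, the longest run in at least 4 was 12 bases, called run B here, at rps-10, rps-13, rps-17 and rps-23, with signals of 144 to 306. It was at 4 of 25 rpl windows and at 5 of the 2528 others (0.198%), and 13 of its 32 matches in the genome were within 75 bp of a thresholded summit. It read on the gene's strand at rps-13 and rps-17 and on the opposite strand at rps-10 and rps-23. The copies at III:6375161-6375172, on the gene's reverse strand, and IV:12391301-12391312, read on the forward strand opposite to the gene, are shown with the run in capitals.
rps-13: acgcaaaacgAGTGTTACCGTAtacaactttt
rps-23: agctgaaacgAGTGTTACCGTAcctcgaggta
The run ends in TACCGTA, the word also common at the rpl windows. Run B was likewise picked from the members' windows, so its counts carry no test.

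The word GGTCTCG, chosen after the windows were seen, was also at members that were not bound. It was within 75 bp of the summit at 5 of 22 bound members (rps-4, rps-11, rps-21, rps-29 and rps-30, 22.7%) and at 4 of the 7 members with a weaker pooled peak (rps-6, rps-7, rps-8 and rps-25). It was at 7 of 25 rpl windows (28.0%), at 3.44% of other thresholded summits and at 2.18% of pooled summits under the threshold. In the 500 bp upstream of the 5′ end it was at 9 of 31 members (29.0%), against 5.55% of other genes.

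Other genes of the ribosome and of its making were bound less evenly. Of the 47 rpl genes 28 were bound (59.6%), and of 43 translation factor genes 14 (32.6%). Of 70 genes for the mitochondrial ribosome, a separate ribosome with its own proteins, 11 were bound (15.7%), and of 18 nucleolar and assembly genes 4 were (22.2%), namely fib-1, rbd-1, lpd-7 and nol-10. Each share was above the 7.1% of protein-coding genes other than rps, and the differences between lists were not tested.

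None of 6 further genes for ribosomal or ribosome-bound proteins that lie outside the rps and rpl names was bound. With 7.1% of protein-coding genes other than rps bound, 0 of 6 does not set these genes apart. In the pooled list 5 of the 6 (83.3%) had a summit in the window, against 35.1% of protein-coding genes other than rps. The strongest pooled summit was at ubq-2, which encodes ubiquitin fused to a large-subunit protein, with a signal of 108 at 472 bp upstream. At ubl-1, which encodes a small-subunit protein fused to a ubiquitin-like one, the signal was 61.1 at 166 bp upstream. At rack-1, a scaffold protein on the head of the small subunit, it was 40.7 at 242 bp. The stalk protein genes rla-2 and rla-1 had signals of 43.5 at 279 bp and 23.4 at 672 bp, and at rla-0 no pooled summit was listed. All 5 listed signals were below the lowest thresholded one, 114, and that of ubq-2 was about as high as that of rps-27.

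**Figure D4:**
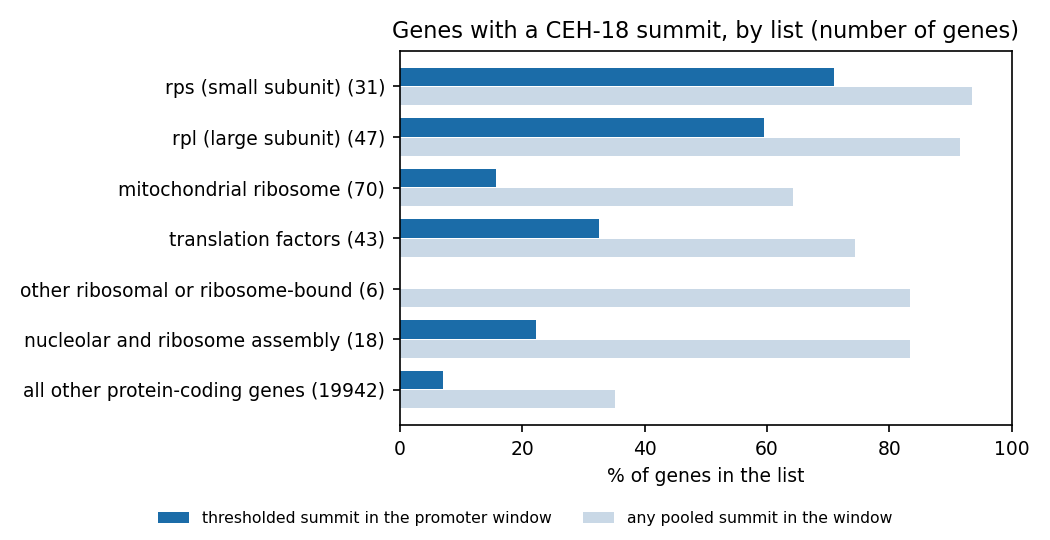
Share of genes with a CEH-18 summit in the promoter window, in percent of each list, for thresholded peaks (dark bars) and for any peak of the pooled list (light bars), with the number of genes in parentheses. The rps genes have 71.0% and 93.5%, and all other protein-coding genes have 7.1% and 35.1%.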

How the data were processed

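ChIP-seq peak lists of 2 biological replicates (1 group) were used on the ce11 build; the ce10 lists were not used. From immunoprecipitated and control alignments, per the labels and the deposited notes, the authors derived a list per replicate (30000 and 21323 peaks on nuclear chromosomes), a pooled list with background (28466) and an IDR-thresholded list (2575). The aligner and caller they ran were not given in the sources used here. Peak signal is the height deposited by the authors on an unstated scale, and −log10 q is as deposited; read counts were not used, so depth is unknown.

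Summits (start plus offset plus 1; 1 pooled summit fell 1 bp past its peak, so positions may be 1 bp off) were assigned to Ensembl release 115 genes, and a member's strongest summit was used. Members, lists and alternatives were chosen with earlier results of these data known. Every member was named, with full values for the 8 highest and 3 lowest bound ones. Motifs were searched on both strands in RefSeq WBcel235 sequence. With 1 group no test between conditions was made, and no p-value is given. Assignment was checked on simulated summits. Alternatives were other windows, nearest genes, stronger peaks, single replicates and the pooled list. Python 3.11.15, numpy 2.4.6, scipy 1.17.1 and matplotlib 3.10.9 were used.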

Additional observations from a re-analysis of the deposited data

How the results depend on the processing

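The number of bound rps genes stayed within 1.5 times 22 under every alternative except both that used the nearest 5′ end. Giving each summit to the nearest 5′ end at any distance, without the window, gave 13 (41.9%, against 10.4% of all genes). The median distance was then 263 bp and the median signal 172. Keeping the window as well, which was added after seeing the data, gave 12 (38.7%, against 5.44%), 262 bp and 180. The window of 500 bp upstream to 100 bp downstream gave 20 members (64.5%, against 5.5%), a median of 272 bp and a signal of 209. That of 2000 bp to 500 bp gave 23 members (74.2%, against 10.2%) and 298 bp. The 1287 peaks with the highest signal gave 15 members (48.4%, against 3.78%), 280 bp and a signal of 278. Leaving out summits near tRNA, snoRNA or snRNA genes gave 21 members (67.7%, against 6.85%) and 280 bp. The pooled list gave 29 members (93.5%, against 35.1%), 297 bp and a signal of 172. Taking any annotated transcript start or the whole peak interval gave 22 members each (71.0%, against 8.0% and 8.06%). The strongest 2575 peaks of replicate 1 gave 20 members (64.5%, against 6.8%) and a median of 286 bp. Those of replicate 2 gave 23 members (74.2%, against 7.59%) and 292 bp. For GAGAGA the share at the members was 9.09% within 50 bp (34.0% at other summits) and 18.2% within 100 bp (53.1%).

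No paired analysis was possible because the 2 replicates form 1 group. Depth is unknown, so a member with no listed summit may have been missed. With 22 summits, a share such as 13.6% has an exact interval of 2.91% to 34.9%.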
